A study of Mus musculus with 21 samples.

Results

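The 10 genes described here code for contractile proteins of ventricular heart muscle cells and were followed in bulk RNA-sequencing of mouse hearts. They were taken by name from the deposited table of counts, which holds 46517 Ensembl genes, and all 10 were found in it and passed the filter on low counts: Myh6, Myl2, Myl3 and Mybpc3 of the thick filament, Actc1, Tnnt2, Tnni3 and Tnnc1 of the thin filament, Actn2 of the Z-disc, and Ttn, the giant protein titin. The study compared hearts of control (Notch3 +/+) mice with hearts of mice lacking the receptor Notch3 (Notch3-/-), both on the C57BL/6J strain and 10 to 14 months old. The Notch3-/- mice carry a targeted insertion of lacZ in the Notch3 locus, an allele that is not limited to heart muscle cells. RNA of the frozen left ventricle was reverse transcribed, amplified by 22 cycles of PCR, fragmented with an enzyme that inserts adapters, and sequenced in 3 technical libraries per mouse. There were 4 control mice (12 libraries) and 3 Notch3-/- mice (9 libraries), and the sex of the sequenced mice is not given in the sources used here.

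The sarcomere is the repeated unit of striated muscle that shortens when myosin heads of the thick filament pull on actin of the thin filament. Calcium binding to troponin C moves the troponin and tropomyosin complex and so exposes the sites on actin, while titin spans from the Z-disc to the M-band as a molecular spring. The RNAs of these proteins are among the most abundant of the ventricle, and the adult mouse heart uses its own isoforms of several of them.

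The libraries differed in depth. The total count of a library ran from 464390 to 2134368 in the 12 control libraries (median 1196276.5) and from 979804 to 2427783 in the 9 Notch3-/- libraries (median 1583662). Summed over 3 libraries each, the totals of control mice 1 to 4 were 3091461, 4638786, 4208205 and 3046326 counts. Those of Notch3-/- mice 1 to 3 were 3828763, 5167869 and 5086740 counts. The mean of the log2 totals was thus 0.34 higher in the Notch3-/- mice.

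Notch3 itself was examined first, as a check of the labels. Its counts were 174, 200, 245 and 185 in the controls, against 22, 36 and 25 in the mice with the insertion. All 3 Notch3-/- mice were far below all 4 control mice, at 6.03 ± 1.38 against 53.9 ± 8.59 CPM (a counts-per-million value scaled by the TMM factors of edgeR; SD, n = 3 and 4). The log2 fold change was -3.16 ± 0.23 (SE; adjusted p = 0.00168, edgeR quasi-likelihood test). The names of 2 control mice (1 and 2) begin with X and those of the other 5 mice with k; Notch3 was not called in the k mice alone, nor with a hepatocyte score as a covariate. An antisense gene, Gm17276, overlaps exons of Notch3, and reads of the 2 genes cannot be told apart without strand.

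Markers of the ventricle were present in every mouse, and the atrial markers Myl7 and Sln had few counts. Irx4, a transcription factor of the ventricle, had between 79 and 273 counts per mouse. Among atrial markers, the light chain Myl7 had 9, 4, 9 and 17 counts in the control mice and 4, 5 and 20 in the Notch3-/- mice, and the ventricular light chain Myl2 had 2786 to 3349 over the 7 mice. Sln, an atrial regulator of the calcium pump, had at most 17 counts in a mouse, and Nppa, the atrial peptide hormone, had between 82 and 902. Of 15 skeletal muscle isoforms, 4 passed the filter on low counts in the genotype comparison, and Myh3, the embryonic myosin, was at 0 in every library. Several fast skeletal isoforms stood out in Notch3-/- mouse 2: Tnnt3 had 69 counts there and at most 5 in any other mouse, Myh4 39 and at most 1, Mylpf 27 and at most 4, Myh1 26 and at most 2, Actn3 24 and at most 5, and Tnnc2 19 and at most 3, all named after their values were seen. Of the rest of the list, Tnni2 (24 counts there and up to 16 in another mouse), Neb (133 and up to 127) and Myh2 (3 and 0) were also highest in this mouse. Myl1 (305 and up to 443), Mybpc2 (103 and up to 280), Tnnt1 (98 and up to 108), Myh8 (5 and up to 11) and Mybpc1 (1 and up to 5) were not. Summed, the 15 isoforms stood at 180.8 CPM in this mouse, within the 142.5 to 195.3 CPM of the control mice. The same mouse had the lowest sarcomere levels, at a median of -0.40 over the 10 genes on the log2 scale relative to the mean of the controls, and the part of skeletal muscle RNA in this was not tested.

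Among all genes Ttn, Myh6 and Mybpc3 ranked 1, 2 and 3 by counts. The 10 genes together took between 1.73% and 4.26% of the counts of a library (median 2.81%). A long transcript collects more reads, so the levels of the 10 genes were compared as counts per base of the principal transcript and library. On this scale the order of the medians over the 21 libraries was Tnnt2 (1.78), Myl3 (1.38), Actc1 (1.37), Tnni3 (1.26), Tnnc1 (1.22), Myl2 (1.18), Myh6 (0.877), Mybpc3 (0.832), Actn2 (0.775) and Ttn (0.154). In control mice the mean was 1.76 ± 0.117 for Tnnt2, 1.36 ± 0.0783 for Actc1 and 1.35 ± 0.0930 for Myl3 (SD, n = 4). On this scale Tnnt2 thus stood above all the others, Actc1 and Myl3 did not differ beyond the spread between mice, and Ttn, with a principal transcript of 100404 bases, was lowest by far. The place of Tnnt2 rests on its principal transcript of 1200 bases: per base of all its exons (7752) it ranked 176 among all genes, where Actc1 ranked 9, and of the 10 genes only Ttn ranked lower (488). Counts of densely covered genes also levelled off with depth, and these levels are not corrected for it.

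Reads of 51 bases can be assigned to one gene only where the sequence is not shared. For Myh6, the fast alpha myosin heavy chain, 22.2% of the 51-base windows of its transcript also occur in other genes, 1347 of 6063 of them in Myh7, the slow beta heavy chain that lies beside it on chromosome 14. The longest run identical in both transcripts has 245 bases; its first 120 bases are given here to show how far a read can fail to tell these genes apart (GENCODE vM21, GRCm38, minus strand; in Myh6 they lie in chr14:54948452-54948725 and in Myh7 in chr14:54975072-54975347, across an exon junction in both).
Myh6 and Myh7 shared run: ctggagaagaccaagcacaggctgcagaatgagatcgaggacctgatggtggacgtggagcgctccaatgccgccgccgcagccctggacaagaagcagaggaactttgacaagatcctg
Counts of Myh6 and Myh7 are therefore uncertain to the extent that the authors' counting split such reads. Of the other genes, Myl2 shared 2.03% of its windows with Ccdc63, Ttn 0.205% with the antisense gene Gm13938 and Actn2 0.0338% with Actn3, and Actc1, Tnnt2, Tnni3, Tnnc1, Myl3 and Mybpc3 shared none. Exons of Gm49130, Ccdc63, Pth1r, Dnaaf3 and Gm13938 overlap those of Myh6, Myl2, Myl3, Tnni3 and Ttn.

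The promoters of the genes were searched on both strands for motifs of factors known from heart muscle. RefSeq (GRCm38.p6) gave 12 promoters for the 10 genes, each from 250 bases before to 50 bases after the start. Both of Myl2 (chr5:122092474-122092773 and chr5:122092939-122093238) lie ahead of its GENCODE gene, which starts at 122100951. The motifs found or not found for Myl2, a TATAAA among them, may thus not describe the promoter of the transcript used here. The CArG box, the binding motif of serum response factor, was present in 1.63% of all 32851 promoters and in 2 of the 10 genes, at -85 in Myl3 and -47 in Actc1 relative to the start. The MEF2 site, the motif of the MEF2 factors, was present in 3.19% of all promoters and in 2 of the 10 genes, at -90 in Mybpc3 and -166 in Ttn. The letters TATAAA were found in 3 of the 10 genes and 13.6% of all promoters, the letters GATA in 8 genes and 57.9% of promoters, and the letters CATTCC in 5 genes and 14.7% of promoters; a TATAAA match can overlap a MEF2 site, and none did in the 4 promoters shown. The 4 promoters with a CArG box or a MEF2 site are shown, with these and TATAAA in capitals. A match is a description of the letters and not of a bound site.
Myl3 promoter, chr9:110763428-110763727, plus strand: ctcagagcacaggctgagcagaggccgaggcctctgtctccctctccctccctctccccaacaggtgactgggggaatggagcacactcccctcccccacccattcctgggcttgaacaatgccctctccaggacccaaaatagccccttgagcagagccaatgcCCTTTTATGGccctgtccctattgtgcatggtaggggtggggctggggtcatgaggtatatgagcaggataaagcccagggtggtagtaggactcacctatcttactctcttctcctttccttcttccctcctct
Actc1 promoter, chr2:114052826-114053125, minus strand: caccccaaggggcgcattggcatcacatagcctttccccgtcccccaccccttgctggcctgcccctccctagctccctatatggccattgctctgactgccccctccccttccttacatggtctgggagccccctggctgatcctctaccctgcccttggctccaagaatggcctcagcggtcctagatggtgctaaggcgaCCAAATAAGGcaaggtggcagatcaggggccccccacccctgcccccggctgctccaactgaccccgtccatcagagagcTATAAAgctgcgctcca
Mybpc3 promoter, chr2:91117894-91118193, plus strand: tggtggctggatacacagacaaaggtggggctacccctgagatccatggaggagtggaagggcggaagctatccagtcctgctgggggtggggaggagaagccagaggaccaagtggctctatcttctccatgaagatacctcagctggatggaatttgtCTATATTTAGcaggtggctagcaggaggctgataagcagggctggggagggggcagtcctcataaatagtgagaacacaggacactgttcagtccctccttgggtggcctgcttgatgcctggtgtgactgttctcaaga
Ttn promoter, chr2:76982498-76982797, minus strand: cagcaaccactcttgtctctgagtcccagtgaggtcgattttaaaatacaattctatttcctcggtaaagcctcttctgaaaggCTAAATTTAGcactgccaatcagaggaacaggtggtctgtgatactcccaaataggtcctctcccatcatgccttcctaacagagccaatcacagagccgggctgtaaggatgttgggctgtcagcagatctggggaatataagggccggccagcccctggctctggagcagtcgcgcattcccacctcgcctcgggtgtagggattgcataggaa

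The first comparison asked whether the loss of Notch3 went with a different level of sarcomere RNA. All 10 genes had a lower mean in the Notch3-/- mice, but none passed the threshold (FDR below 0.05 and a fold change of at least 1.5), and for each of them the mice of the 2 groups overlapped. The log2 fold changes lay between -0.28 (Myl3) and -0.084 (Mybpc3), with a median of -0.24. With the log2 mouse total as a covariate, described further below, 1 of the 10 was still lower and the median was 0.045. The thick filament genes come first. Myh6 stood at 5172, 3552, 3802 and 4878 CPM in control mice 1 to 4 and at 4490, 3149 and 3472 CPM in Notch3-/- mice 1 to 3. Control mice 1 and 4 were high and the Notch3-/- mice 2 and 3 were low, while Notch3-/- mouse 1 lay among the controls. The log2 fold change was -0.23 ± 0.17 (SE; 95% interval -0.60 to 0.14; adjusted p = 0.668, edgeR). It ran from -0.39 (without Notch3-/- mouse 1) to -0.14 (without Notch3-/- mouse 2) with a mouse left out.

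Myl3, the essential light chain that stiffens the neck of the myosin head, stood at 1205, 818.8, 937.8 and 1148 CPM in the control mice and at 1027, 763.1 and 756.5 CPM in the Notch3-/- mice. The same 2 control mice were high, and the same 2 Notch3-/- mice were below every control mouse. The log2 fold change was -0.28 ± 0.16 (SE; adjusted p = 0.599, edgeR). Myl2, the regulatory light chain of the same neck, had a log2 fold change of -0.27 ± 0.17 (SE). Mybpc3, the myosin-binding protein C that links the thick filament to actin and titin, stood at 2636, 2112, 2566 and 3014 CPM in the control mice and at 2729, 2168 and 2411 CPM in the Notch3-/- mice. Here the Notch3-/- mice lay within the range of the controls, and the log2 fold change was -0.084 ± 0.13 (SE; adjusted p = 0.872, edgeR). It ran from -0.17 (without Notch3-/- mouse 1) to -0.0062 (without control mouse 4) with a mouse left out, and was -0.029 without the smallest library.

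Of the thin filament genes, Actc1, the cardiac alpha-actin, stood at 1853, 1290, 1472 and 1896 CPM in the control mice and at 1672, 1227 and 1238 CPM in the Notch3-/- mice. Control mice 1 and 4 were again the highest, and 2 of the 3 Notch3-/- mice were below all controls. The log2 fold change was -0.24 ± 0.17 (SE; adjusted p = 0.654, edgeR). Tnnt2, which ties troponin to tropomyosin, Tnni3, which holds contraction back at rest, and Tnnc1, which binds calcium, had log2 fold changes of -0.27 ± 0.17, -0.26 ± 0.17 and -0.25 ± 0.16 (SE), nearly the same value in the 3 troponin subunits.

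Actn2, the alpha-actinin that cross-links actin at the Z-disc, stood at 1953, 1636, 1764 and 2094 CPM in the control mice and at 1822, 1432 and 1598 CPM in the Notch3-/- mice. The groups overlapped, with a log2 fold change of -0.20 ± 0.12 (SE; adjusted p = 0.599, edgeR). Ttn stood at 13466, 10016, 12238 and 13047 CPM in the control mice and at 15151, 8983 and 10037 CPM in the Notch3-/- mice. Both the highest and the lowest mouse were Notch3-/-, and the log2 fold change was -0.098 ± 0.18 (SE; adjusted p = 0.893, edgeR). Without Notch3-/- mouse 2 it was 0.038.

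**Figure D1:**
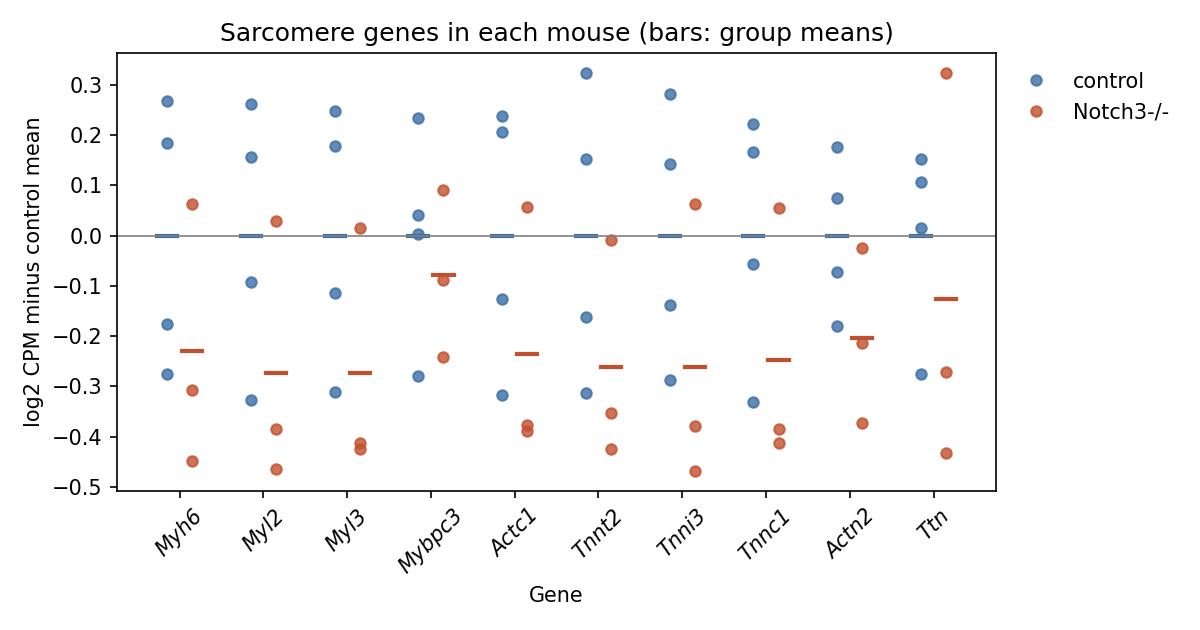
Level of each sarcomere gene in each mouse, as log2 CPM minus the mean of the 4 control mice; each point is 1 mouse and bars are group means. For all 10 genes the Notch3-/- mice overlap the control mice, and Notch3-/- mouse 1 lies above the other Notch3-/- mice.

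Read against the whole table, 0 of the 10 genes were called by edgeR, where 1 of 14324 tested genes was called (0.00698%), and that gene was Notch3; without Notch3-/- mouse 3 the tool called 936 genes and 0 of the 10. At an unadjusted p below 0.05, 0 of the 10 were lower, against 2.81% of all tested genes, and in 0 of the 10 did the 7 mice separate, against 3.66% of all tested genes with every Notch3-/- mouse lower. DESeq2, which called 593 genes in all, and limma-voom on the 7 mice, which called 1, also called 0 of the 10 and had 0 of them at an unadjusted p below 0.05. Leaving out Notch3-/- mouse 1 brought 9 of the 10 to an unadjusted p below 0.05, all lower, against 3.60% of all tested genes in the same fit, with a median log2 fold change of -0.40. Without control mouse 2 it was 3 of the 10 against 2.83%, and with technical library 2 alone 6 of the 10 against 3.54%, all lower. In these 3 fits 0 of the 10 were called. With technical library 1 or 3 alone it was 0 of the 10, with medians of -0.33 and -0.19. Leaving out any other mouse gave 0 of the 10, with medians from -0.29 (without control mouse 3) to -0.17 (without Notch3-/- mouse 2). Notch3-/- mouse 1 had the smallest total of its group and control mouse 2 the largest, so both omissions widened the difference in depth. Leaving out control mouse 3 (log2 total 22.0, control mean 21.8) also widened it, and there 0 of the 10 had an unadjusted p below 0.05. The part of depth in these fits was not tested. In the k mice alone the median was -0.27 and 0 of the 10 were called or had an unadjusted p below 0.05. The 95% intervals of the log2 fold changes all included 0 and differed between genes, from -0.65 to 0.10 for Myl2 to -0.38 to 0.21 for Mybpc3 and -0.47 to 0.066 for Actn2. The widest interval was that of Ttn, from -0.50 to 0.30. In whole tissue, fewer muscle cells and less RNA per muscle cell cannot be told apart.

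The second comparison asked how the counts of these genes followed the depth of the library, since the 3 libraries of a mouse are technical replicates. Over the 7 mice, all 10 genes had a lower normalized level in deeper libraries of the same mouse, though Ttn did not in every mouse. Control mouse 4 had libraries of 464390, 1139286 and 1442650 counts: Myl3 had 922, 1211 and 1348 counts in them, which are 1985, 1063 and 934.4 CPM with no TMM factor. Ttn had 6268, 15452 and 17836 counts in the same libraries, which are 13497, 13563 and 12363 CPM with no TMM factor. The counts of Myl3 thus grew far less than the total in this mouse, while Ttn kept nearly the same share. In Notch3-/- mouse 3, with libraries of 1222065, 1436892 and 2427783 counts, Myl3 had 1308, 1306 and 1432 counts and Ttn had 14530, 22101 and 17051 counts. Here Myl3 was nearly flat, and Ttn did not follow the total in the deepest library. In control mouse 3 the library of 1783399 counts, the deepest of its 3, had the highest share of Ttn, at 13283 CPM beside 12575 and 11631 CPM in the others, with no TMM factor.

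Over the 21 libraries, whose totals spanned a 5.23-fold range, the highest count was 1.55 times the lowest for Myl3, 1.52 times for Actc1, 1.58 times for Tnnc1, 1.63 times for Myl2, 1.74 times for Myh6, 1.87 times for Tnni3, 1.92 times for Tnnt2, 2.19 times for Mybpc3, 2.29 times for Actn2 and 4.10 times for Ttn. Actc1 ran from 1555 to 2185 counts in the control libraries (median 2023.5) and from 1957 to 2368 in the Notch3-/- libraries (median 2018). Myh6 ran from 3869 to 6388 (median 5365) and from 4903 to 6731 (median 5266). The medians of the 2 groups were thus close in counts, although the Notch3-/- libraries were deeper.

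A slope was fitted for every gene with the mouse as a term, as the change in log2 normalized level per doubling of the library total. The p-value of a slope measures the spread between technical libraries of the same mouse, not between mice. The level was normalized by TMM factors, which themselves shift with depth, so a slope is read against the median of all genes and does not convert directly into counts. All 10 genes had a slope below 0 at an FDR below 0.05, against 2.58% of 13019 tested genes, whose median slope was -0.0056. Without control mouse 4 the genes called in either direction numbered 713 in place of 374 and the 10 were still called. The steepest were Myl3 (-0.97 ± 0.062, SE), Actc1 (-0.96 ± 0.050), Tnnc1 (-0.94 ± 0.071) and Myl2 (-0.90 ± 0.066). Myh6 (-0.85 ± 0.054), Tnni3 (-0.83 ± 0.062) and Tnnt2 (-0.79 ± 0.050) followed, then Mybpc3 (-0.70 ± 0.062) and Actn2 (-0.66 ± 0.055). Ttn had the shallowest slope (-0.43 ± 0.11; adjusted p = 0.0136, edgeR), and its adjusted p rose to 0.112 without control mouse 2 and to 0.110 without the largest library. Actn2 was the shallowest without control mouse 4 (-0.61, with Ttn at -0.64) and in Notch3-/- libraries only (-0.59, with Ttn at -0.65). Without TMM factors the slope of Myl3 was -0.80 and that of Ttn -0.26, where the median of all genes was 0.17. In raw counts, a doubling of depth went with a 1.15-fold count of Myl3 and a 1.65-fold count of Ttn, and the raw slope of Ttn within a mouse ran from 0.054 to 1.43 on the log2 scale.

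**Figure D2:**
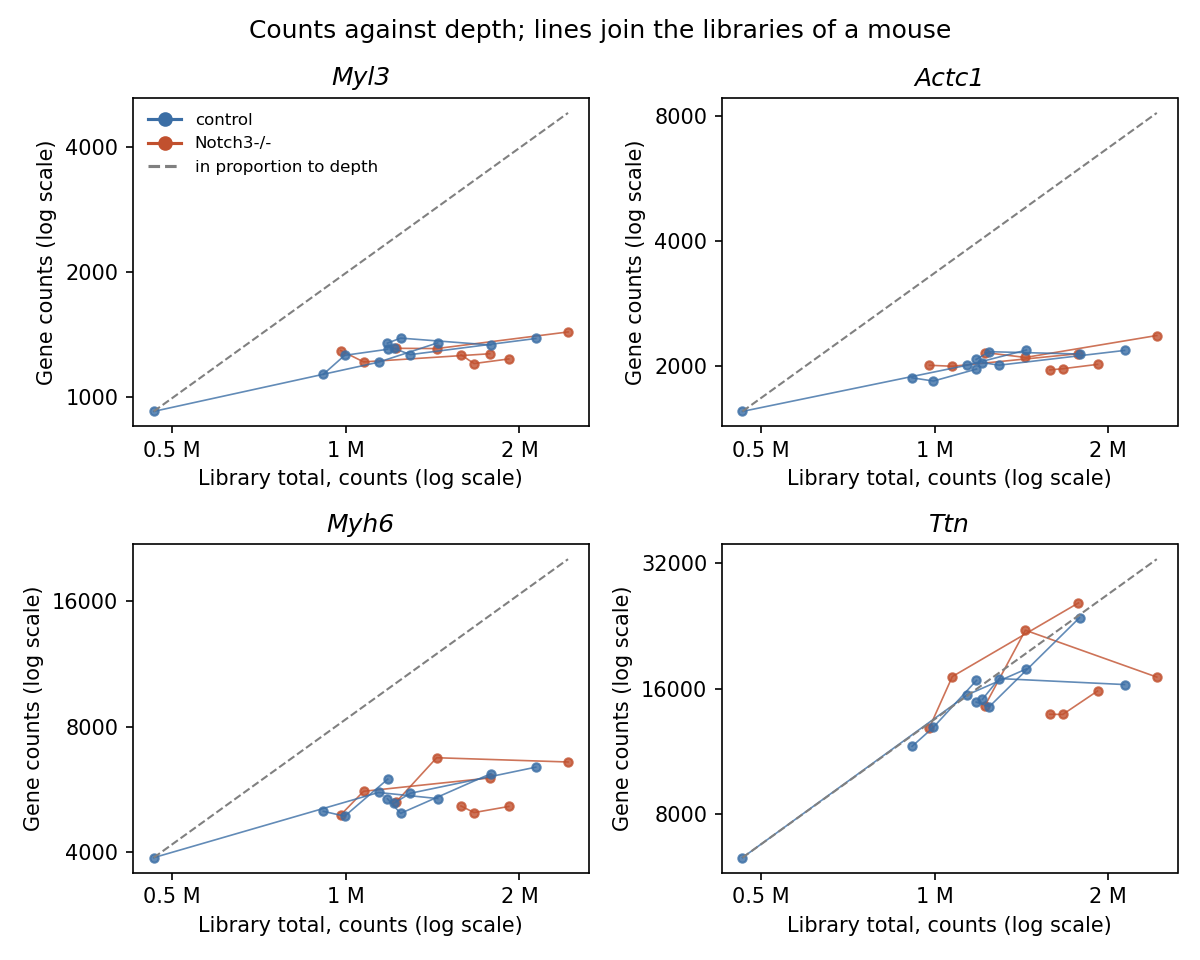
Counts of Myl3, Actc1, Myh6 and Ttn in each library against the library total, both on log scales; lines join the 3 libraries of a mouse and the dashed line is growth in proportion to depth from the smallest library. Myl3, Actc1 and Myh6 stay far below the dashed line, while most Ttn points lie near it.

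The slope went with how densely a gene was covered. Among the 20 tested genes with over 1 count per exon base and library on average, the median slope was -0.88 and 18 were called below 0. Among 61 genes between 0.5 and 1, which hold 7 of the 10 sarcomere genes, the median was -0.69 and 53 were called. Among 6066 genes under 0.01 the median was 0.045 and 5 were called. Over the 10 genes themselves Spearman's rank correlation of the median count per transcript base with the slope was -0.673, a description across genes that share libraries and depth. This scale is not that of the bins: per exon base Tnnt2 (0.27) was not the densest of the 10, and only Ttn (0.14) was below it. The correlation per exon base was not computed. Among genes of at least 200 exon bases, the highest counts per exon base in a library were those of AY036118 (1.97), mt-Rnr2 (1.85), mt-Nd1 (1.85), mt-Cytb (1.79) and mt-Nd6 (1.69). How duplicate reads were treated before counting is not given in the sources used here, and the reason for the levelling was not tested.

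**Figure D3:**
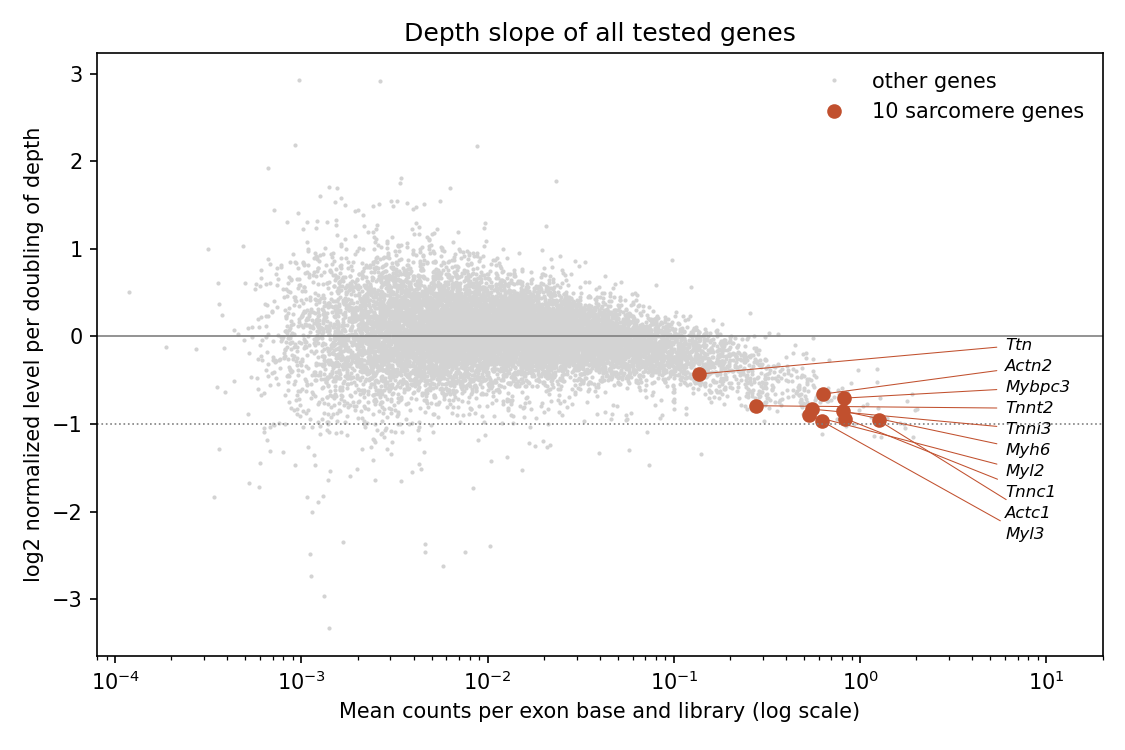
Depth slope of each tested gene against its mean counts per exon base and library (log scale); each grey point is a gene, the 10 sarcomere genes are labelled, and lines mark slopes of 0 (solid) and -1 (dotted). The sarcomere genes lie between -0.97 and -0.43, and 9 of the 10 lie above 0.2 counts per exon base, Ttn being the exception.

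Since the Notch3-/- mice had the larger totals, the genotype difference was also fitted with the log2 mouse total as a covariate. The median log2 fold change of the 10 genes then went from -0.24 to 0.045, and 1 of the 10, Actn2, was still below 0 (-0.022 ± 0.070, SE). Myh6 went from -0.23 to 0.077 ± 0.059, Myl3 from -0.28 to 0.024 ± 0.076, and Ttn from -0.098 to 0.17 ± 0.12. The direction of the genotype difference thus turned for 9 of the 10 genes, and 0 were called by edgeR or had an unadjusted p below 0.05 in this fit. With 1 library per mouse, taken nearest to the median total, the median was -0.043 and 9 of the 10 were below 0. Among densely covered genes, 58 of 61 tested genes between 0.5 and 1 count per exon base and library (7 of the 61 being sarcomere genes), and 20 of 20 above 1 (1 of them Actc1), had a lower mean in the Notch3-/- mice, against 7143 of all 14324. Genotype and depth moved together in these 7 mice, and the part of depth in the genotype difference was not tested beyond these fits.

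**Figure D4:**
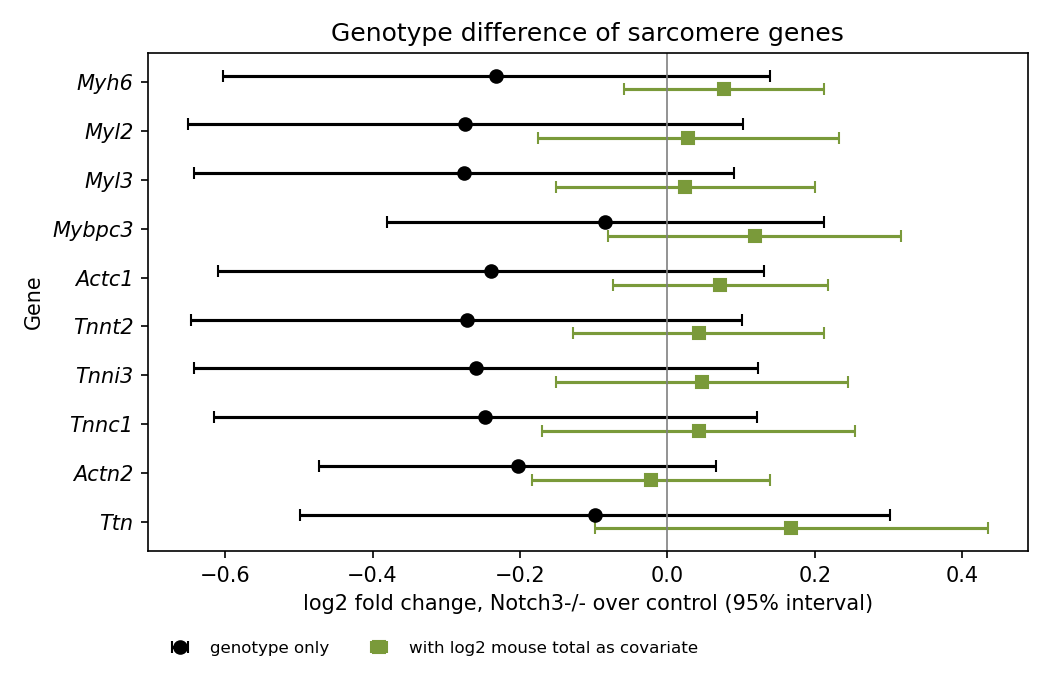
Log2 fold change of each sarcomere gene, Notch3-/- over control, with its 95% interval, from the fit with genotype alone (black) and with log2 mouse total as a covariate (green). All 10 black points lie below 0 and 9 of the 10 green points above it, and every interval includes 0.

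The spread between technical libraries of a mouse was larger than that between control mice for each of the 10 genes. For Myl3 the SD of log2 CPM within mice was 0.44, against 0.26 between the 4 control mice summed, and it was 0.074 once the slope on depth was taken out. For Ttn it was 0.32 within mice, 0.19 between control mice and 0.27 after the slope. Most of the scatter of Myl3 within mice thus went with depth, and a smaller part of that of Ttn did.

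Genes whose log2 CPM over the 21 libraries was most like the mean profile of the 10 were Tpm1, the tropomyosin of the thin filament (Pearson's r = 0.990), Mb, myoglobin (0.990), and the mitochondrial genes mt-Nd4 (0.988), mt-Cytb (0.988) and mt-Nd1 (0.987). The profile itself had r = -0.983 with the log2 library total, which all these genes share. After mouse and depth were taken out, the likest were Adgrf5 (0.906), Mpdz (0.898), Vcl (0.897), Lars2 (0.890) and Pan2 (0.885), so that a different set led. These values describe 21 libraries of 7 mice.

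Fetal and atrial isoforms were read as shares of counts with their adult partner, not corrected for transcript length. Myh7 took 4.81%, 8.27%, 16.4% and 6.93% of the counts of Myh6 and Myh7 in the control mice and 4.99%, 8.80% and 10.1% in the Notch3-/- mice; the exact 95% binomial interval of the highest was 15.8% to 16.9%. Control mouse 3 was highest and the groups overlapped. Acta1, the skeletal alpha-actin, took from 7.87% in control mouse 1 to 38.4% in Notch3-/- mouse 3 of the counts of Acta1 and Actc1, also with overlap. Myl4, the atrial essential light chain, took 0.369% to 0.913% beside Myl3, and Tnni1, the slow troponin I, had at most 3 counts in a mouse beside at least 3043 of Tnni3. Reads were amplified by PCR without molecular identifiers, so these intervals cover counting error only. The shares are not independent of depth: Myh6 and Actc1 had steeper depth slopes (-0.85 and -0.96) than Myh7 (-0.073) and Acta1 (-0.55), and the Notch3-/- mice had the larger totals.

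Other genes of the sarcomere and of heart muscle were taken as lists. In these lists of striated muscle genes 0 were called by edgeR, DESeq2 or limma-voom on the 7 mice. Of all tested genes 7143 were lower and 7181 higher. In the thin filament 5 of 6 were lower, from Lmod2, which lengthens actin filaments (log2 fold change -0.45), to Fhod3, which nucleates them (0.0012), with Tpm1 the most abundant per exon base (-0.24). In the Z-disc 16 of 18 were lower, from Pdlim3 (-0.52) to Xirp1 (0.26), with Tcap, which caps titin, the most abundant (-0.43). In the M-band 4 of 6 were lower, from the kinase Speg (-0.29) to Myom1, which links thick filaments (0.061). All 8 genes of assembly and turnover were lower, from the ubiquitin ligase Trim63 (-0.57) to the myosin chaperone Unc45b (-0.072), with Hspb7 at -0.25. The adjusted p of Trim63 was 0.138 (edgeR). At an unadjusted p below 0.05 in edgeR, 1, 1, 1 and 3 genes of these 4 lists were lower and 0 were higher, where 403 of all 14324 tested genes were lower (2.81%) and 1068 higher.

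Of the fetal and atrial isoforms 3 of 4 tested were lower, from Myl4 (-0.88) to Acta1 (0.11), and Myh7 was at -0.44 ± 0.33 (SE). Of the cardiac transcription factors 10 of 12 were lower, from Hand2 (-0.66) to Mef2d (0.095), with Nkx2-5 at -0.021. In the intercalated disc 5 of 9 were lower, from Pkp2 (-0.25) to Dsc2 (0.33), with Jup at -0.23. All 8 other muscle cell genes were lower, from Mb (-0.27) to Casq2 (-0.031). All 8 tested mitochondrially encoded genes were lower, from mt-Co3 (-0.40) to mt-Atp6 (-0.26), with mt-Nd1 at -0.29. Of the skeletal isoforms 3 of 4 tested were lower, from Myl1 (-0.50) to Tnnt1 (0.11). At an unadjusted p below 0.05 in edgeR, Myl1 was lower and 0 of the other genes in these 6 lists passed in either direction.

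Depth slopes below 0 were called by edgeR for 2.58% of all tested genes. They were called for 7 of 7 mitochondrially encoded genes, 5 of 8 other muscle cell genes, 8 of 18 Z-disc genes, 3 of 8 assembly genes, 2 of 6 M-band genes, 1 of 3 fetal and atrial isoforms, 2 of 9 intercalated disc genes and 1 of 6 other thin filament genes. Of 12 transcription factors 0 were called, with 1 at an unadjusted p below 0.05 and 1 called by limma-voom. Of 5 skeletal isoforms 0 were called, with 0 at an unadjusted p below 0.05 and 0 called by limma-voom.

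Markers of other cells were summed per mouse. The 12 hepatocyte markers stood at 60.4, 140.1, 11.5 and 24.1 CPM in the control mice and at 5279, 9283 and 127.3 CPM in the Notch3-/- mice, with none at 0 over all libraries; Alb was the most abundant (log2 fold change 5.36) and Apob had the highest (8.92). All 12 had an unadjusted p below 0.05 and 0 were called by edgeR or limma-voom, while DESeq2 called all 12. Notch3-/- mice 1 and 2 were high and mouse 3 was near control mouse 2, while the sarcomere genes were higher in mouse 1 than in mice 2 and 3. In each group the mouse with the highest hepatocyte sum had the lowest sarcomere level. These were Notch3-/- mouse 2 (median -0.40 relative to the mean of the controls, log2) and control mouse 2 (-0.30). With a hepatocyte score as a covariate the median log2 fold change of the sarcomere genes was -0.29. The 7 fibroblast markers summed to 1239 ± 117 CPM in control and 1471 ± 194 CPM in Notch3-/- mice (SD, n = 4 and 3), with log2 fold changes from Dcn, the most abundant (-0.26), to Col3a1 (0.79); 3 of the 7 were higher at an unadjusted p below 0.05 in edgeR, 0 were called by it or by limma-voom, and DESeq2 called 2. The 6 endothelial markers summed to 970.7 ± 163 and 1111 ± 23.5 CPM, with log2 fold changes from Cdh5 (-0.097) to Kdr (0.43) and Egfl7, the most abundant, at 0.015. The 5 leukocyte markers summed to 393.8 ± 39.9 and 430.1 ± 38.2 CPM, with log2 fold changes from Cd68 (-0.018) to Ptprc (0.40) and Cd74, the most abundant, at 0.033. The 3 erythroid markers summed to 312.9 ± 75.0 and 245.5 ± 111 CPM, with log2 fold changes from Hba-a1 (-0.60) to Alas2 (-0.061) and Hbb-bs, the most abundant, at -0.52. In edgeR 2 of the 3, Hba-a1 and Hbb-bs, were lower at an unadjusted p below 0.05, and 0 were called by any of the 3 tools. Depth slopes below 0 were called for the same 2 genes (-0.88 and -0.79), and the Notch3-/- mice had the larger totals. Of the 4 adipocyte markers 0 were tested, and Cfd was the most abundant; they summed to 0.326, 1.04, 0 and 8.91 CPM in the control mice and to 2.99, 1.86 and 0 CPM in the Notch3-/- mice. Their part in the sarcomere values, beyond the hepatocyte covariate, was not tested.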

How the data were processed

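RNA of the left ventricle of 4 control and 3 Notch3-/- mice was sequenced in 3 technical libraries per mouse, with single reads of 51 bases. The values the authors deposited are counts without normalization; the submitters' processing notes name CASAVA and mm10, and the counting program and the treatment of duplicate reads are not given in the sources used here. Of 46517 gene identifiers 46005 were found in GENCODE vM21 (GRCm38) and 512 were not. The 92 spike-in sequences held 34 counts in all and were left out.

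Counts were summed per mouse and tested in R 4.3.3 with edgeR 4.0.16 (filterByExpr, TMM, quasi-likelihood F-test, Benjamini-Hochberg adjustment over all tested genes); genes were called at an FDR below 0.05 and a fold change of at least 1.5. P-values of this genotype fit measure the spread between mice. Depth slopes were fitted in edgeR on the 21 libraries with the mouse and the log2 library total as terms. Their p-values measure the spread between technical libraries of the same mouse, not between mice. Log2 CPM had a prior count of 2. Named genes were the 10 sarcomere genes, Notch3, Myh7, Acta1, from each list the most abundant per exon base and those with the highest and lowest log2 fold change, the 5 with the likest profile (mean of at least 10 CPM), and the 5 densest per exon base. Cell type markers (Irx4, Myl7, Sln, Nppa), isoform partners (Tnni1) and list genes at 0 were also named, and 12 skeletal isoforms were added after their values were seen. The members and lists were chosen with earlier results of these data known. Alternatives covered normalization, filters, DESeq2 1.42.0, limma-voom (limma 3.58.1), depth covariates, single technical libraries, the mice labelled k alone, a hepatocyte score and each mouse left out. Both fits were tested on simulated data. The libraries of a mouse, and the mice, differed by more than sampling noise. Precision is limited by the spread between 4 and 3 mice, and for genes with few counts also by totals of 3046326 to 5167869 counts per mouse.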

Additional observations from a re-analysis of the deposited data

Results flagged for a closer look

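In each of 35 values over the 4 control mice, the gap of the highest or lowest mouse to its neighbour was set against the whole range, and 3 had a mouse far from the others; chance gives about 1 in 20, and the 3 Notch3-/- mice are too few for this measure. No sarcomere gene was among them. The summed CPM of the other Z-disc genes had a ratio of 0.905, with control mouse 2 low at 9505 CPM beside 11216, 11395 and 11326. The summed CPM of the fibroblast markers had a ratio of 0.833, with control mouse 1 high at 1412 CPM beside 1202, 1160 and 1179. The summed CPM of the adipocyte markers had a ratio of 0.884, with control mouse 4 at 8.91 CPM beside 0.326, 1.04 and 0.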

How the results depend on the processing

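With 3 Notch3-/- mice and totals that differ between groups, the genotype values are limited in number and in depth. None of the 10 sarcomere genes was called under any of the 24 alternatives of the genotype comparison. Over all genes, 1 was called in the main comparison, 639 with every gene of at least 1 count, 593 with DESeq2, 64 with limma-voom on 21 libraries, 10 with that and the log2 library total, 80 with 1 library per mouse, 48, 31 and 77 with technical library 1, 2 or 3 alone, 0 with the mice labelled k only, 0 with the hepatocyte score, and 1 to 936 with a mouse left out (936 without Notch3-/- mouse 3). The cause was not tested. With the log2 library total in limma-voom, the median log2 fold change of the 10 genes was 0.037, with Myh6 0.046, Myl2 0.015, Myl3 0.034, Mybpc3 0.13, Actc1 0.072, Tnnt2 0.0032, Tnni3 0.012, Tnnc1 0.051 and Ttn 0.039. With the log2 mouse total in edgeR it was 0.045, with Myh6 0.077, Myl2 0.028, Myl3 0.024, Mybpc3 0.12, Actc1 0.072, Tnnt2 0.042, Tnni3 0.047, Tnnc1 0.042 and Ttn 0.17. Mybpc3 also turned with 1 library per mouse (0.12), technical library 3 alone (0.053) and the hepatocyte score (0.038), and Ttn ran from -0.36 to 0.038 with a mouse left out. Summed without the smallest library, an alternative chosen after seeing the data, all 10 were below 0 with a median of -0.18. The technical replicate number did not pair libraries across mice: same-numbered libraries had a median correlation of -0.010 in their deviations, 3 of 63 pairs were over 0.1, and 6 of 21 libraries correlated best with their own number. With this replicate block limma-voom called 54 genes in place of 64, and the depth fit 363 in place of 374. All 10 slopes stayed below 0 under every alternative. Slopes called over all genes numbered 207 in control libraries only, 245 in Notch3-/- libraries only, 282 to 713 with a mouse left out (713 without control mouse 4), and 570 without the smallest library, an alternative chosen after seeing the data. Library totals with no TMM factor moved the median slope of all genes to 0.17 and that of the 10 to -0.67. The slope of Ttn was not past the threshold there (-0.26), in Notch3-/- libraries only (-0.65), without control mouse 2 (-0.33) or without the largest library (-0.27, chosen after seeing the data).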

Other observations

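Myh11, the smooth muscle myosin heavy chain and a relative of Myh6, had 121, 97, 45 and 59 counts in the control mice and 12, 24 and 19 counts in the Notch3-/- mice. All 3 Notch3-/- mice were below all 4 control mice, with a log2 fold change of -2.48 ± 0.45 (SE; adjusted p = 0.115, edgeR), which did not pass the threshold. Of the 6 smooth muscle markers 5 were tested and 4 were lower, with Smtn, the most abundant per exon base, at -0.22 and Acta2 the highest at 0.16; DESeq2 called 1 of the list and limma-voom 0. The list summed to 581.2 ± 88.7 CPM in control and 506.4 ± 134 CPM in Notch3-/- mice (SD, n = 4 and 3).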
